A study of Mus musculus with 18 samples.

Results

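The Hist1h genes are the histone genes of mouse chromosome 13. They were taken as all protein-coding genes of that chromosome in the mm10 annotation GENCODE vM21 whose symbol begins with Hist1h, which gave 54 of 21951 protein-coding genes. Lamin B1, H3K9me3 (trimethylation of lysine 9 of histone H3) and Foxa2 were mapped by ChIP-Seq in whole liver of male C57BL/6 mice. Lamin B1 and H3K9me3 came from wild-type mice aged 3 months (young) and 21 months (old), with 2 replicates per age. Foxa2 came from mice aged 12 weeks, with 3 wild-type replicates and 3 replicates of Zmpste24 KO littermates, which lack the protease that matures prelamin A in every tissue. The deposited lists hold positions called on merged replicates, so each condition below is one list with no spread between replicates, and no difference between lists could be tested. Counts of Hist1h genes are therefore given beside the same share of all 21951 genes. Whole liver holds several cell types, and loss of a region from one cell type cannot be told apart from its loss in a part of all cells.

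Histone genes of this kind are replication-dependent: they are read in S phase, and their messages end in a stem-loop in place of a poly(A) tail. H2A, H2B, H3 and H4 form the nucleosome core, around which DNA is wound, and linker H1 binds where the DNA enters and leaves it. In most mammalian cells the genes of this cluster gather with the coactivator Npat in a nuclear body. The nuclear lamina, by contrast, lines the inside of the nuclear envelope. Its lamin B1-bound stretches of chromosome (lamin-associated domains) and the mark H3K9me3 both typify compact chromatin with few active genes. The lamin B1 domains called here also held hepatocyte genes. Of 10 hepatocyte genes 3 touched one in young and 6 in old liver, as did 2 and 7 of 8 genes of other tissues. Of all protein-coding genes 38.8% did in young and 64.8% in old liver, so these counts are not particular to hepatocyte genes. The lists hold no expression, so a place in a domain does not show that a gene is silent. Adult liver divides rarely.

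The 54 genes code for 6 linker H1 proteins, 13 H2A, 15 H2B, 9 H3 and 11 H4. They were short, with a median of 532 bp and 41 genes of at most 1 kb, against a median of 17.4 kb over all protein-coding genes. The longest gene model, Hist1h2be (an H2B gene), spans 37.5 kb and its first bases overlap the linker gene Hist1h1e. Members less than 200 kb apart were joined into loci, which gave 2 loci 1.49 Mb apart. Locus 1, chr13:21715763-22043676, runs from Hist1h2bl to Hist1h2bj and holds 23 genes in 327.9 kb. Locus 2, chr13:23531050-23934851, runs from Hist1h4h to Hist1h2aa and holds 31 genes in 403.8 kb. Within them 12 pairs of neighbours start back to back on opposite strands, 11 of which join an H2A gene to an H2B gene, with 175 to 659 bp (median 268) between the start sites.

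The sequences below belong to genes named in the results. The first is the promoter of Hist1h2bq, an H2B gene of locus 1 that lay in a lamin B1 domain in young liver (chr13:21810200-21810449, minus strand), and it was identical to that of Hist1h2br, a second H2B gene of the same domain (chr13:21833493-21833742, plus strand), in all 300 bases compared. The second is the promoter of the H4 gene Hist1h4d (chr13:23581318-23581567, plus strand), which a Foxa2 site of the Zmpste24 KO covers. Both are the 250 bases before the RefSeq start site in GRCm38.p6, written 5′ to 3′ on the strand of the gene. Capitals mark CCAAT and TATAAA on either strand (CCAAT on the opposite strand appears as ATTGG), the words of the CCAAT box and the TATA box.
Hist1h2bq promoter: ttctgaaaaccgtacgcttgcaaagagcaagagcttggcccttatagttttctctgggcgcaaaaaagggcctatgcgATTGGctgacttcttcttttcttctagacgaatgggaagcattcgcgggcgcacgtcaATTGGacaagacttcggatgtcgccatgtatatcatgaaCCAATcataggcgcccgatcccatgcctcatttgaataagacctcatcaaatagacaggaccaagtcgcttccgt
Hist1h4d promoter: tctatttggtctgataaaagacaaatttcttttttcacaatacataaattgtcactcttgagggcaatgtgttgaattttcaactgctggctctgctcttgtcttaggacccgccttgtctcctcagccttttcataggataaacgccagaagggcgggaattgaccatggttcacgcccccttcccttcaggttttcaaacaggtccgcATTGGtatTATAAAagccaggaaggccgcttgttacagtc

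Stretches of 3 Foxa2 sites are shown for the genes nearest to them, on the plus strand of GRCm38. The first, chr13:21828335-21828454, is from a KO site near the H4 gene Hist1h4n and holds the forkhead core TGTTTAC, which reads GTAAACA on this strand and is in capitals. The second, chr13:23563808-23563927, is the middle of the wild-type site near the H3 gene Hist1h3e. The third, chr13:23730546-23730665, lies in a site near the linker gene Hist1h1c that was called in both genotypes. Neither of the last 2 holds the core.
KO site near Hist1h4n: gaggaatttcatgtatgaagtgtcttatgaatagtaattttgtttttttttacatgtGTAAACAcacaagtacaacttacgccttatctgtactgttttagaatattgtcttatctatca
Wild-type site near Hist1h3e: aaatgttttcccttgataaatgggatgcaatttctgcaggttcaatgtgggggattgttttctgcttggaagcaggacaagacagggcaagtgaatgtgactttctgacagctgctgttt
Site of both genotypes near Hist1h1c: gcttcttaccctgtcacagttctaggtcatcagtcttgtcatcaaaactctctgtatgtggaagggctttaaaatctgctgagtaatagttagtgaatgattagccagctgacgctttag

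In young liver 13 of the 54 genes (24.1%) touched a lamin B1 domain by at least 1 bp, and in old liver none did. Over all protein-coding genes the share went the other way, from 38.8% in young to 64.8% in old. H3K9me3 gave the same picture on a smaller scale: 6 Hist1h genes (11.1%) touched a region in young liver and none in old, against 16.5% and 29.6% of all genes. None of the 54 Hist1h genes touched both marks, and the share of all genes that did was not counted. Together 19 of the 54 (35.2%) were in a young list, where 48.6% of all genes were, and 0 were in an old list, where 68.8% of all genes were. All 19 were thus in a young list and in neither old one, a pattern that 7.08% of all genes had, as did 11.5% of the other protein-coding genes of chromosome 13. Genes with lamin B1 in young liver only numbered 13 here, against 4.14% of all genes, and genes with lamin B1 in old liver only numbered 0, against 30.1%. For H3K9me3 the young-only genes numbered 6, against 6.76% of all, and the old-only genes 0, against 19.8%.

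The members are not separate observations of this change. The 13 lamin B1 genes lay in 2 young domains and the 6 H3K9me3 genes in 1 young region, and counted by the 10 kb windows in which these regions were called, 28 windows held a Hist1h gene, of which 5 were in a young lamin B1 domain, 6 in a young H3K9me3 region and 0 in either old list. A domain called at one age and missing at the other was common across the genome: 30.9% of the 1624 young lamin B1 domains and 47.5% of the 2784 young H3K9me3 regions shared no base with the old list. The study lists more lamin B1 reads for young than for old livers and fewer H3K9me3 reads for young than for old, and age and depth cannot be told apart.

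**Figure D1:**
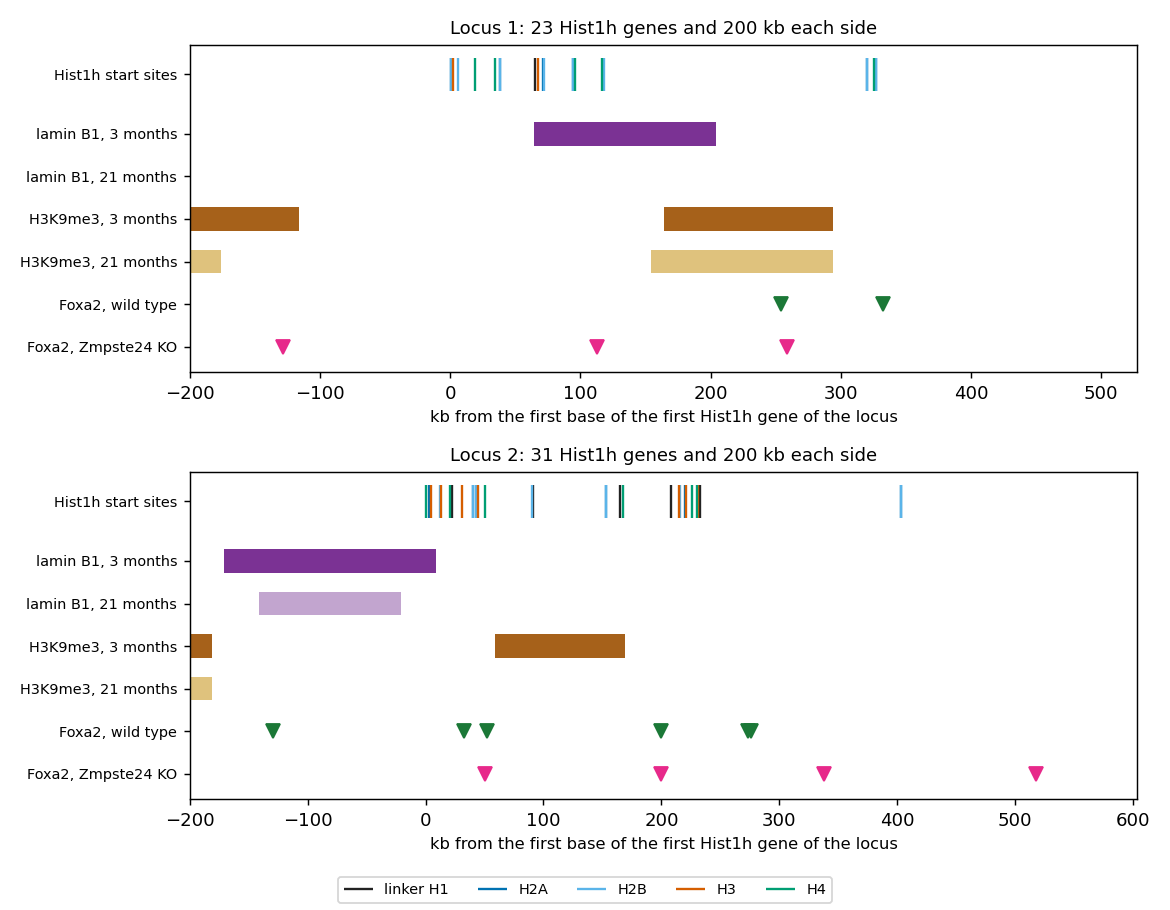
Called regions across both Hist1h loci and 200 kb on each side, against the distance in kb from the first base of the first Hist1h gene. Vertical ticks are the start sites of the 54 genes coloured by histone, bars are lamin B1 domains and H3K9me3 regions, and triangles are Foxa2 sites. No bar of the lists at 21 months lies under a tick, while bars at 3 months lie under 19 genes.

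The larger of the changes was in locus 1. A young lamin B1 domain of 140 kb, chr13:21780001-21920000, held 10 genes of all 5 histones, and no old domain lay within 200 kb of the locus. It opens inside Hist1h1b, a linker H1 gene with 84.1% of its body in the domain, and takes in the whole of the H3 gene Hist1h3i, the H2A genes Hist1h2an, Hist1h2ao and Hist1h2ap, the H2B genes Hist1h2bp, Hist1h2bq and Hist1h2br, and the H4 genes Hist1h4m and Hist1h4n. The 8 genes from Hist1h2bl to Hist1h2bn, before the domain, touched no list at either age. Past the last of the 10 genes, the domain ran on over sequence without histone genes, and its final 40 kb, chr13:21880001-21920000, was also in a young H3K9me3 region.

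In locus 2 the young domain only reached the edge. It spanned 180 kb, chr13:23360001-23540000, and its last 10 kb window held the first 3 genes of the locus whole: the H4 gene Hist1h4h, the H2A gene Hist1h2af and the H3 gene Hist1h3g. The old list kept the middle of this domain, chr13:23390001-23510000, which is 120 kb long and had lost 30.0 kb at each end. Its nearest edge lay 21.1 kb from the start site of Hist1h4h in old liver. The genes that follow, from the H2B gene Hist1h2bh at 3.39 kb from the young domain to Hist1h2aa at 394 kb, were outside it at both ages.

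The young H3K9me3 region of locus 2, chr13:23590001-23700000, was 110 kb long and held 6 genes of 4 histones, with no old region there. These were Hist1h2be (83.1% of its body), Hist1h1e, the pair Hist1h2ac and Hist1h2bc, the testis linker gene Hist1h1t and the H4 gene Hist1h4c, each of the last 5 whole. After its loss the nearest old H3K9me3 region lay between 271 kb (Hist1h2be) and 348 kb (Hist1h4c) from their start sites. The one old region within 200 kb of locus 2, chr13:23270001-23350000, had the same ends at both ages.

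Elsewhere at the loci H3K9me3 was listed at both ages outside the histone genes. Before locus 1 a region of 250 kb in young liver, chr13:21350001-21600000, was 80.0 kb long in old, chr13:21460001-21540000. Between the 2 groups of genes of locus 1 a region was called at both ages, chr13:21880001-22010000 in young and chr13:21870001-22010000 in old, and it covered the neighbours Zfp184, Pom121l2 and Prss16 but no histone gene. So the histone genes of locus 1 lost no H3K9me3 region, since they held none. Over the length from first to last gene, locus 1 was 39.6% covered by H3K9me3 in young and 42.7% in old liver, while its lamin B1 cover went from 42.7% to 0%. Locus 2 had the opposite emphasis, with H3K9me3 going from 27.2% to 0% and lamin B1 from 2.22% to 0%. With 200 kb added on each side, lamin B1 went from 19.2% to 0% of locus 1 and from 22.4% to 14.9% of locus 2, and H3K9me3 from 29.4% to 22.6% and from 16.0% to 2.36%. Over the genome lamin B1 cover rose from 17.6% to 35.1%, and H3K9me3 cover was 21.7% in young and 23.2% in old.

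Within 200 kb the counts also fell from young to old, but in young liver they lay above the share of all genes. A young lamin B1 domain lay within 200 kb of 44 Hist1h genes (81.5%), against 56.0% of all genes. An old one lay within 200 kb of 20 (37.0%), against 74.4%. All 20 were in locus 2, since locus 1 had no old domain in reach, and the start sites of its genes lay 226 kb (Hist1h2bl) to 553 kb (Hist1h2bj) from the nearest. For H3K9me3 the counts were 52 in young (96.3%), against 43.4% of all genes, and 28 in old (51.9%), against 60.7%. Of the 28 genes, 23 belonged to locus 1.

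The windows without a histone gene were also listed less often in old liver. Of 127 such windows in the loci and their flanks, 27 were in lamin B1 domains in young and 12 in old, and 29 were in H3K9me3 regions in young and 19 in old. The 29 other protein-coding genes of the flanks included 4 with lamin B1 in young and 3 in old, and 7 with H3K9me3 in young and 5 in old. As a group these neighbours kept some of each mark in old liver, where the histone genes had none, but this rests on few regions. The 3 genes and 12 windows with old lamin B1 all lay in 1 domain beside locus 2, and locus 1 had no old domain. Of the 127 windows without a histone gene, 21 were in a young list and in neither old one, as were 11 of the 28 windows with one.

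**Figure D2:**
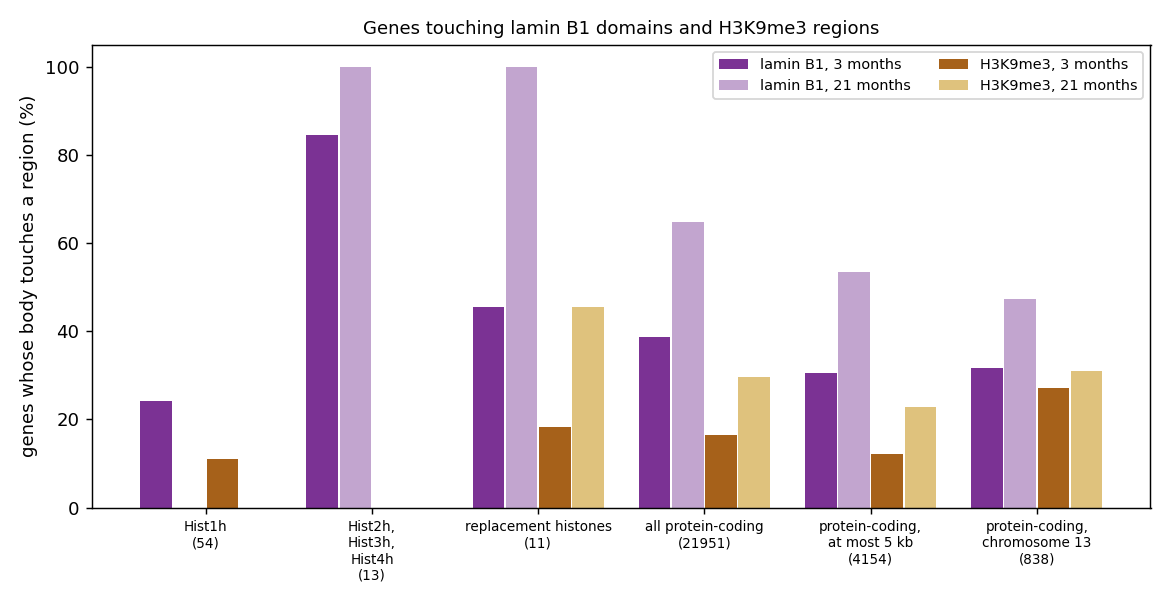
Percent of genes whose body touches a lamin B1 domain or an H3K9me3 region at 3 and 21 months, by gene group, with the number of genes in parentheses. The bars of the Hist1h genes at 21 months are absent because 0 of 54 genes touched a region, while the lamin B1 bars of the 5 other groups are higher at 21 than at 3 months.

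Genes of each of the 5 histones touched lamin B1 in young liver, and genes of each but H3 touched H3K9me3. Of 6 linker genes, which code for proteins that compact the fibre, 1 was in the lamin B1 domain (Hist1h1b) and 2 in the H3K9me3 region (Hist1h1e and Hist1h1t). The others, Hist1h1d, Hist1h1c and Hist1h1a, were in no list, with start sites 13.3 kb, 199 kb and 224 kb from a young domain. Of 13 H2A genes 4 touched lamin B1, from Hist1h2an to Hist1h2af, 1 touched H3K9me3 (Hist1h2ac), and 8 touched neither, from Hist1h2ai to Hist1h2aa. The 15 H2B genes gave 3 and 2, with 10 in no list, from Hist1h2bl to the testis gene Hist1h2ba. The 9 H3 genes gave 2 (Hist1h3i and Hist1h3g) and 0, with 7 in no list, from Hist1h3h to Hist1h3a. Of 11 H4 genes 3 touched lamin B1 and 1 H3K9me3, and 7 were in no list, from Hist1h4j to Hist1h4a. In old liver the count was 0 for each histone. Since genes of all histones are interleaved, these counts rest on the positions of 3 regions.

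Back-to-back partners always shared a state. In young liver both genes of 3 pairs were in the lamin B1 domain of locus 1 (Hist1h2an with Hist1h2bp, Hist1h2bq with Hist1h2ao, and Hist1h2ap with Hist1h2br) and both genes of Hist1h2ac with Hist1h2bc in the H3K9me3 region. The other 8 pairs had neither gene in a list. Windows of 10 kb do not resolve start sites this close.

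Joining members less than 50 kb apart split the loci into 5 groups. The first, from Hist1h2bl to Hist1h2br, held 18 genes in 122 kb and all 10 lamin B1 genes of locus 1. The second, Hist1h2ah to Hist1h2bj, had 5 genes in 8.51 kb, none of them in a list, although an H3K9me3 region ended 25.6 kb from it at both ages. The third, Hist1h4h to Hist1h1e, held 16 genes, 3 with lamin B1 and 2 with H3K9me3, and was the single group with both marks. The fourth, Hist1h2ac to Hist1h1a, held 13 genes, 4 of them with H3K9me3. The fifth is the testis pair Hist1h2ba and Hist1h2aa, 169 kb from the fourth, and was the group farthest from a young region of either mark.

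Part of the large lamin B1 change sits on sequence that short reads cannot place. The authors kept uniquely aligned reads of 40 or 60 bases. Every 40-base word of the loci was therefore counted in GRCm38, and the share of words that occur once was taken as the sequence to which such a read can be assigned. The 10 genes of the young domain of locus 1 include an inverted copy: chr13:21792574-21812409 (19.8 kb), with Hist1h2bq, Hist1h2ao and Hist1h4m, recurs in reverse at chr13:21830892-21851277 (20.4 kb), with Hist1h4n, Hist1h2ap and Hist1h2br. In Hist1h2bq, Hist1h2ao, Hist1h2ap and Hist1h2br 0% of the 40-base words occurred once, and 8.96% and 7.21% did in Hist1h4m and Hist1h4n. This is the copy to which the identical promoters shown above belong.

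The 3 windows that hold these 6 genes had 0%, 3.11% and 9.20% of words occurring once. With 60-base words the shares were 0.320%, 4.75% and 10.7%. Hist1h1b, Hist1h3i, Hist1h2an and Hist1h2bp lie in the first window of the same domain, where the share was 90.2%, and the window of Hist1h4h, Hist1h2af and Hist1h3g had 89.2%. Of the windows that hold a Hist1h gene, the 6 in the young H3K9me3 region had 88.0% to 97.8%. The 17 that lay in no list had 78.2% to 97.8%. Without the 6 genes of the inverted copy, 7 of 48 genes touched lamin B1 in young liver and 0 in old, and the H3K9me3 counts stayed at 6 and 0. Whether the copy bears on how the domain was called was not tested.

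**Figure D3:**
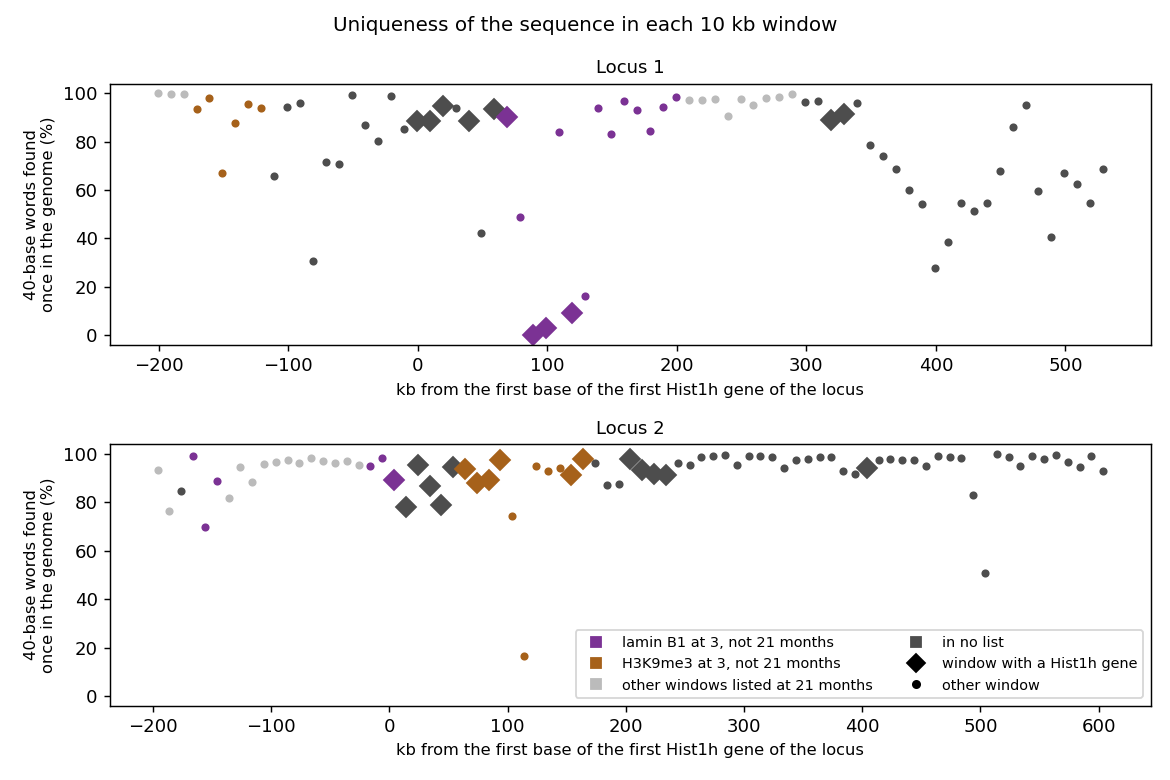
Percent of 40-base words that occur once in GRCm38, for each 10 kb window of both loci and 200 kb on each side, against distance in kb from the first Hist1h gene. Colour gives the lists a window is in and diamonds are windows with a Hist1h gene. The 3 diamonds under 10% all lie in the young lamin B1 domain of locus 1, and all other diamonds are above 78%.

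Over gene bodies, the share of 40-base words that occur once had a median of 49.5% (range 0% to 100%). Linker H1 genes, whose sequences have diverged most, had a median of 97.9%. The core histones were lower, with medians of 26.8% for H2A, 50.8% for H2B, 46.3% for H3 and 57.8% for H4. The 6 H3K9me3 genes had a median of 91.1%, the 13 lamin B1 genes 18.0% and the 35 genes in no list 49.6%.

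The other histone genes of the mouse did not share the pattern of the Hist1h genes. The 13 replication-dependent genes of the Hist2h, Hist3h and Hist4h clusters, on chromosomes 3, 11 and 6, all touched a lamin B1 domain in old liver, and 11 of them did in young. None touched H3K9me3 at either age. The 2 genes with lamin B1 in old liver only were Hist3h2ba and Hist3h2a. Of 11 replacement histone genes, which are used outside S phase, 5 touched lamin B1 in young and 11 in old, and 2 and 5 touched H3K9me3. Over all genes 38.8% touched lamin B1 in young and 64.8% in old, and 16.5% and 29.6% touched H3K9me3. Among them H2afz, which codes for H2A.Z, had its whole body in H3K9me3 in young liver and 0% in old, and it kept lamin B1 at both ages. No gene of the 2 lists was in a young list and in neither old one, where 19 Hist1h genes were. Only 7.08% of all genes had that pattern, so 0 among 24 genes is near the share of all genes. These 24 genes also lie in few domains (10 Hist2h genes share 1 cluster), and the difference was not tested.

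Of 10 genes for factors that read histone genes or cut their messages, 6 touched lamin B1 in young and 9 in old liver. The shares of all genes were 38.8% and 64.8%. The exception was Npat, the coactivator of these histone genes, on chromosome 9, with 100% of its body in a lamin B1 domain in young liver and 0% in old, and no H3K9me3. It was the 1 gene of the 10 in a young and in neither old list, a pattern that 7.08% of all genes had. Slbp, which binds the stem-loop of histone messages, was in lamin B1 domains at both ages over 100% of its body. Lsm11 and Casp8ap2 went from 0% to 100% and 8.63%.

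Foxa2, the winged-helix factor of hepatocytes, had a few sites at the loci. As a check of the lists, a Foxa2 site lay within 10 kb of the start site of 5 of 10 hepatocyte genes in wild type and 6 in the KO. Among them were Apoa2, Apob and Pck1 in both. Over all genes the shares were 8.37% and 9.30%. Of 8 genes of other tissues 0 had such a site in either list, which is near those shares and cannot serve as a control. Within 200 kb of the loci 8 wild-type sites (2 at locus 1, 6 at locus 2) and 7 KO sites (3 and 4) were called, and 1 of each overlapped the other. Over the whole lists 27.2% of 4960 wild-type sites and 16.7% of 8177 KO sites overlapped a site of the other genotype. The KO list is thus longer, and shares few positions with the wild type, across the genome.

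A wild-type site lay within 10 kb of the start sites of 12 Hist1h genes (22.2%), against 8.37% of all genes, and a KO site within 10 kb of 10 (18.5%), against 9.30%. The genes are packed, so these counts came from 4 wild-type and 3 KO sites. Within 200 kb of the gene body were a wild-type site for 46 genes, against 60.9% of all genes, and a KO site for all 54, against 72.9%. The genes within 10 kb of a wild-type site and also of a KO site numbered 7: Hist1h2ae, Hist1h2bg, Hist1h2bf, Hist1h2ad, Hist1h3d, Hist1h4d and Hist1h1c. Only at Hist1h1c did the sites of the genotypes overlap, and the others lay near different sites in each genotype. The share of all genes near sites of each genotype was not counted.

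**Figure D4:**
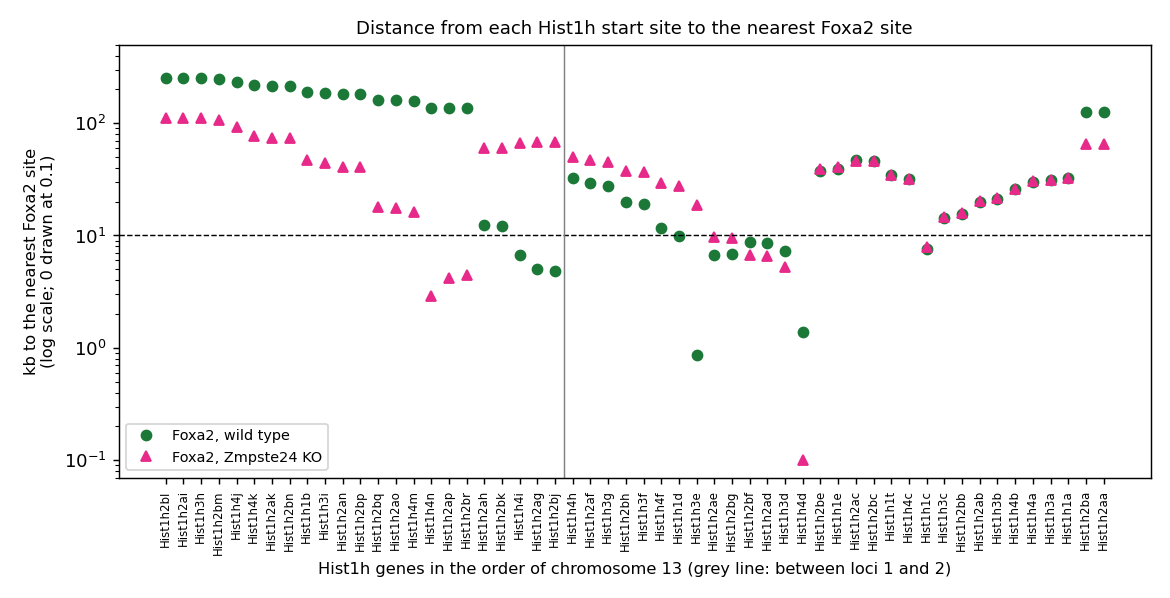
Distance in kb (log axis) from the start site of each Hist1h gene, in chromosome order, to the nearest Foxa2 site in wild type (circles) and Zmpste24 KO (triangles). The dashed line is at 10 kb, and a distance of 0 is drawn at the bottom. From Hist1h2bl to Hist1h2br the KO site is the nearer, from Hist1h2ah to Hist1h3e the wild-type site is.

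The member nearest to a KO site was Hist1h4d, an H4 gene of locus 2. The KO site chr13:23580962-23581710 covers its start site and the whole promoter printed above. The nearest wild-type site, chr13:23582991-23583695, is a different one, 1.39 kb past the start site, and it touches the far end of the Hist1h2be gene model. The member nearest to a wild-type site was Hist1h3e, at 862 bp from chr13:23563231-23564504, and 18.6 kb from a KO site. The site near Hist1h1c was the overlapping one, at 7.55 kb (chr13:23730466-23731253) in wild type and 7.92 kb (chr13:23730327-23730885) in the KO.

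In locus 1 the sites of the genotypes differed in place. The KO site chr13:21827990-21829311 lay 2.88 kb from Hist1h4n, inside the lamin B1 domain of young wild-type liver and between the arms of the inverted copy, and brought Hist1h4n, Hist1h2ap (4.20 kb) and Hist1h2br (4.43 kb) within 10 kb. In wild type their nearest site was 136 to 137 kb away. At the other end, the wild-type site chr13:22048002-22048727 lay 4.79 kb from Hist1h2bj and within 10 kb of Hist1h2ag and Hist1h4i, which were 66.1 to 68.0 kb from a KO site. The lamin B1 list for this domain came from mice aged 3 months and the Foxa2 lists from other mice aged 12 weeks, and lamin B1 in the KO was not analysed here.

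The forkhead core TGTTTAC, searched on both strands, was in 0 of the 8 wild-type and 2 of the 7 KO sites at the loci, against 27.7% and 23.4% of the whole lists. Its places were chr13:21828392, in the KO site near Hist1h4n printed above, and chr13:21587237, in a KO site 128 kb before Hist1h2bl.

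Promoter sequence was matched in RefSeq for 51 of the 54 genes, over 250 bases before and 50 after the start site. None of the 51 held the forkhead core, which 3.55% of 27025 mouse promoters held. The CCAAT word was in 43 (84.3%), against 37.9% of all promoters, and was in each of the linker H1, H2A, H2B and H3 promoters matched but in 3 of 11 H4 promoters, one of which is that of Hist1h4d. TATAAA was in 31 (60.8%), against 14.2%. The octamer ATTTGCAT, the word bound by Pou2f1, was in 10 (19.6%), against 1.75%, and these were 5 H2A and 5 H2B promoters. Words were searched on both strands, and no word contains another. Split by state, CCAAT was in 15 of the 18 matched genes of the young lists and 28 of 33 in no list, TATAAA in 8 and 23, and the octamer in 1 and 9. Back-to-back pairs share promoter bases and the copied genes repeat theirs, so these counts were not tested.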

How the data were processed

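Lamin B1, H3K9me3 and Foxa2 ChIP-Seq of 14 of the 18 samples was used. The other samples, H3K9me2 of young and old liver, were not analysed here. Foxa2 in old liver is not among the 18 samples, and the study took it from earlier work. Per the labels, BWA and SICER and the build mm10 were used. Per the methods, the authors took out duplicates with Picard, used reads of 40 and 60 bases that aligned to one place, merged replicates, and called lamin B1 domains with Epic (a SICER implementation, 10 kb windows) and Foxa2 sites with PeakSeq against input, after reducing KO reads to the wild-type number. The caller of the H3K9me3 regions is not given in the sources used here, and the 2 H3K9me3 lists hold fewer regions (2784 and 2496) than the study describes. The lists were matched to conditions by name. The deposited values are positions in bp, with no signal or score. Depth per replicate is unknown, which leaves the precision of each list unknown; no interval was set on shares, because members share domains.

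Starts were raised by 1 to count from base 1. In the lamin B1 and H3K9me3 lists the end is the final base of a window, and 1 was added to it; ends of Foxa2 sites were taken as exclusive, which no source states. Genes came from GENCODE vM21, whose chromosome lengths are those of mm10, and sequence from GRCm38.p6 and the RefSeq promoter table. Promoters of Hist1h3f, Hist1h2bc and Hist1h3a had no match. A gene touched a region at 1 bp or more. Members less than 200 kb apart formed a locus, and Foxa2 distances run from the annotated start site. Unique words of 40 bases were counted on both strands of the assembled chromosomes. The members and lists were chosen with earlier results of these data known. Named were the first and last gene of each locus, each gene in a list at one age only or in none (for more than 12, the first and last of each histone), and the nearest to a Foxa2 site; Hist1h2bq, Hist1h2ao, Hist1h2ap, Hist1h4n and the other genes near Foxa2 sites were named after their values were seen. The overlap, distance, word and copy code was checked on simulated data. Python 3.11.15, numpy 2.4.6, pandas 2.3.3 and matplotlib 3.10.9 were used. Alternatives varied the overlap rule, flank, region length, biotype, background and joining distance.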

Additional observations from a re-analysis of the deposited data

How the results depend on the processing

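With no replicates or scores in the lists, leaving out a replicate and a stricter score threshold were not run, and no value carries a test. Counting start sites inside a region, whole gene bodies, gene bodies with 10 kb each side or regions of at least 50 kb left the counts within 1.5 times of those reported (12 to 15 genes for young lamin B1, 5 to 7 for young H3K9me3) and both old counts at 0. With 200 kb on each side 44, 20, 52 and 28 genes had young lamin B1, old lamin B1, young H3K9me3 and old H3K9me3, and 24 genes had each mark in young only. Hist1h genes of every biotype (56, with 2 that are not protein-coding) gave 1 gene in each old list, where the 54 protein-coding genes gave 0. By distinct 10 kb windows young lamin B1 had 5. With genes of windows with unique sequence only, an alternative chosen after seeing the data, young lamin B1 and lamin B1 in young only had 7 of 48. Without the young domain of locus 1, also chosen then, 3 of 54 genes had young lamin B1. Both widened loci together were 7.83% covered by old lamin B1 and 12.0% by old H3K9me3. Without widening these were 0% and 19.1%, and with 1000 kb the first was 23.8%. On chromosome 13 the share of all genes with young H3K9me3 was 27.1%, and among genes of at most 5 kb 53.4% had old lamin B1. Sites of Foxa2 numbered 13 in wild type and 18 in the KO with 1000 kb, and 4 in each among sites narrower than the median of their list. In all, 75 of the values under these alternatives stayed within 1.5 times and 20 moved further. No paired analysis was possible because the replicates were merged before the regions were called.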

Other observations

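Among the 29 neighbours of the histone genes, families differed in what they held. The 4 Slc17a genes, which code for phosphate and urate transporters, the 5 vomeronasal receptor genes Vmn1r and Hfe, the iron regulator mutated in haemochromatosis, touched none of the 4 lists. Hfe lies 19.6 kb from a wild-type Foxa2 site and 19.5 kb from a KO site. A wild-type site lay 0 kb from the start site of Slc17a2, and a KO site 0.591 kb from that of Slc17a1, each in one genotype. The butyrophilin genes Btn1a1 and Btn2a2 and the gene Abt1 had 100% of their bodies in lamin B1 domains at both ages, in the domain whose end reached Hist1h4h in young liver. Zfp322a, at the other end of that domain, had 57.2% of its body in it in young and 0% in old. Of the olfactory receptor genes before locus 1, Olfr1535 and Olfr1364 were wholly in H3K9me3 in young liver and 0% in old, while Olfr1366 went from 100% to 63.5%.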
